A study of Homo sapiens with 6 samples.

Results

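The DNA replication origin and fork genes are 48 genes chosen by symbol, all 48 of which had a row among the 23152 genes of the count table. Each also met edgeR's minimum count, as did 14467 genes in all. They comprise the origin recognition and licensing factors, the MCM helicase, the factors that fire origins, the polymerases, the sliding clamp and its loader, the single-strand binding protein RPA, the enzymes that join Okazaki fragments, the fork protection factors and E2F1, E2F2 and E2F3. RNA was sequenced from T24, an established human bladder cancer cell line, in 3 samples labelled vector (the empty control) and 3 samples labelled oeRNF112 (overexpression of the E3 ubiquitin ligase RNF112). The labels give both groups the same growth conditions and no other allele or agent. The study's methods describe lipofection of a plasmid that carries RNF112, and also a stable line, and which of these was sequenced is not given in the sources used here. The treatment text deposited with the samples speaks of siRNA, whereas the titles name an overexpression. Nothing in the labels says whether the 3 samples of a group were separate cultures, so p-values measure only the spread between these samples, which may be technical.

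Before a cell enters S phase, the origin recognition complex (ORC) with CDC6 and CDT1 loads the MCM ring, made of MCM2 to MCM7, around DNA at replication origins, and geminin (GMNN) blocks CDT1 once S phase has begun. The kinase CDC7 with its activator DBF4 then allows CDC45 and the GINS complex to join the ring, which becomes the helicase that unwinds DNA at the fork. Polymerase alpha with primase starts each strand, polymerase epsilon extends the leading strand and polymerase delta the lagging strand, held by the clamp PCNA that the RFC complex loads. Most of these genes are transcribed as cells pass from G1 to S under control of the E2F factors. In bulk RNA, fewer cells in S phase and less of an mRNA per cell cannot be told apart.

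The targeted gene, RNF112, was counted 27, 19 and 24 times in vector and 29753, 36963 and 31712 times in oeRNF112, in the direction the labels give. Total counts were between 40029547 and 41259569, a count of 0 allowed at most 0.0749 CPM (counts scaled to library size; 3 counts per library, for counting error only), and the TMM scaling factors ran from 0.957 to 0.988 in vector and from 1.01 to 1.05 in oeRNF112. Of the urothelial and epithelial markers, KRT7, KRT8 and KRT18 carried most of a summed level of 3489.6 to 4355 CPM in vector and of 2846 to 3302 CPM in oeRNF112, whereas CDH1 and UPK3A had at most 1 count and TP63 at most 2. Leukocyte markers summed to between 2.90 and 5.47 CPM over all samples and endothelial markers to at most 0.594 CPM, and KRT5, UPK1B and MS4A1 had no row in the table used here. Fibroblast markers summed to 9.38 to 11.9 CPM in vector and 12.4 to 13.0 CPM in oeRNF112. VIM, CDH2, FN1 and ZEB1, mesenchymal-type markers, summed to 5685 to 6073 CPM in vector and 4906 to 5545 CPM in oeRNF112. Both ranges lay above the epithelial ones. Of these genes only CDH2 passed, as lower (log2 fold change -0.44, edgeR adjusted p = 0.0252). All these sums were scaled by library totals. Of the 8 epithelial and urothelial markers tested, KRT7 and KRT18 were lower in oeRNF112 (log2 fold changes -0.48 and -0.51, edgeR adjusted p = 0.0226 and 0.0130), KRT17 and EPCAM were higher (1.09 and 0.84, edgeR adjusted p = 0.0271 and 0.0208), and KRT8, KRT19, GATA3 and UPK1A did not pass. The part of these markers in the results on replication genes was not tested.

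The 6 promoters below show the letters that many of these genes share. The promoter of a gene was taken as the 250 bases before and 50 bases after its RefSeq start (GRCh38.p14, 42 of 48 genes with an entry), and it was searched on both strands for 4 E2F-type words, TTTCCCGC, TTTCGCGC, TTTGCCGC and TTTGGCGC. A match was present in 21 of the 42 promoters, against 3.33% of all 27305 promoters in the table and 5.39% of the 11415 promoters of genes tested. The 6 printed are those of the genes with the smallest p-values among those lower in oeRNF112 that hold a match, each shown to 20 bases past the start in the direction of transcription, with the matches in capitals. They lie at chr2:135876424-135876693 (minus strand), chr19:48170325-48170594 (minus), chr6:52284723-52284992 (minus), chr7:100101378-100101647 (minus), chr16:58392221-58392490 (plus) and chr3:127598161-127598430 (plus).
MCM6: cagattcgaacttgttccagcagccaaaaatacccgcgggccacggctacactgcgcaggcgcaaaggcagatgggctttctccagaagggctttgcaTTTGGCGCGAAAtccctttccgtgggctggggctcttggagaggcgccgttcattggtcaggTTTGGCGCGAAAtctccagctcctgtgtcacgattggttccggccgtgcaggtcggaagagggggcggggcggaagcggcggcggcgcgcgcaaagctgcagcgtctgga
LIG1: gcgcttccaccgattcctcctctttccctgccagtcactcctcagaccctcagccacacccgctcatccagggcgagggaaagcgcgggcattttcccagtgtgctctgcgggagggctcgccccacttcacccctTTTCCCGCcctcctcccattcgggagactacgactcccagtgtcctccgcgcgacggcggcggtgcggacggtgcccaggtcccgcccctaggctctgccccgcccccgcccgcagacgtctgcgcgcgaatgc
MCM3: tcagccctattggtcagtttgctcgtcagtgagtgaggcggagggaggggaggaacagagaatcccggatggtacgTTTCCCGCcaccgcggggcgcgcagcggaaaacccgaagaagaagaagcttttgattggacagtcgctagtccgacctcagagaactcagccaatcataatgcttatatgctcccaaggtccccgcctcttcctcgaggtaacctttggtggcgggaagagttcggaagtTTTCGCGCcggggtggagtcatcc
MCM7: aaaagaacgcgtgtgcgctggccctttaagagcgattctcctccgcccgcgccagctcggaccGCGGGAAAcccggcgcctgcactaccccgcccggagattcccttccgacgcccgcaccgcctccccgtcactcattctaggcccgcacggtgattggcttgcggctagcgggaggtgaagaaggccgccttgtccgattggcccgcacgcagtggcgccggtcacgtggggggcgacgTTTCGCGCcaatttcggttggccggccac
GINS3: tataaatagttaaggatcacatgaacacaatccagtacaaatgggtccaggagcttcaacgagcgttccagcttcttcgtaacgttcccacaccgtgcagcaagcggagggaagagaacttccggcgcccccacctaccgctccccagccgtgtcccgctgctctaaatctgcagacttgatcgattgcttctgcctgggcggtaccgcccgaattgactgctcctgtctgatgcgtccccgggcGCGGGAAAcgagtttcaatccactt
MCM2: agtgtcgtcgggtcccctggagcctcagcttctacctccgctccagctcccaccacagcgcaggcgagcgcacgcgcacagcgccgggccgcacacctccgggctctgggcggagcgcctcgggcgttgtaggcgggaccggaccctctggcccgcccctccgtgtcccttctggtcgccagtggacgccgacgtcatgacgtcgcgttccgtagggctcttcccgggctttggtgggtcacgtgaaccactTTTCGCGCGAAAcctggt

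MCM6 held 4 matches that form 2 copies of the run TTTGGCGCGAAA, in which a word on one strand overlaps a word on the other, and MCM2 held such an overlapping pair, TTTCGCGCGAAA, just past its start. A match in MCM3 and the match in GINS3 lay across the start itself, and a match in MCM7 ended just before it. Among the promoters of genes lower in oeRNF112, 7 of 11 held an E2F-type match, and among those of the genes not past the threshold 14 of 31 did, including CDC6, CDT1, E2F1, E2F2 and E2F3. MCM5, GINS4 and RPA2, also lower in oeRNF112, had no promoter entry and are not among the 11. MCM4, POLD3 and RPA3, not past the threshold, had no entry either. The E-box CACGTG, a word bound by c-Myc and related factors, was found in 6 of 42 promoters (14.3%), against 9.82% of the promoters of genes tested, in 4 of 11 promoters of the lower genes and 2 of 31 of the others. TTTGAA, the core of the CHR word found in genes of late cell cycle phases, was found in 2 of 42 (4.76%), against 9.60% for the genes tested. A match describes the letters only, and no binding was measured.

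Overexpression of RNF112 was compared with vector for all 48 genes to ask whether mRNA of the replication machinery differed between them. Of the 48 genes, 14 were lower in oeRNF112 with an adjusted p under 0.05 (edgeR's quasi-likelihood test, Benjamini-Hochberg over all genes tested), a share of 29.2%, against 8.14% of all genes tested and 9.74% of the genes with a mean of at least 10 CPM, to which 47 of the 48 belong. None of the 48 was higher by the same test, against 9.97% of all genes tested and 8.35% of those with a mean of at least 10 CPM. At an adjusted p under 0.05, DESeq2 called 15 lower and none higher, against 6.39% and 7.15% of all genes it tested. Limma on log2(RPKM + 1) called 9 lower and 2 higher, against 4.62% and 12.9% of all genes. At an unadjusted p under 0.05, the counts were 21 lower and 3 higher with edgeR, 21 and 3 with DESeq2 and 15 and 7 with limma. No share over all genes was computed at that threshold. Over the 48 genes the log2 fold change had a median of -0.14 (quartiles -0.34 and -0.00), against 0.00 for all genes tested, and 36 of the 48 had a fitted value below 0. In 19 of the 48 genes every oeRNF112 sample was below every vector sample, and in 3 every one was above, against 17.9% and 18.9% of all genes tested. The 14 falls ran from 82.7% of vector for MCM2 to 69.3% for TIMELESS.

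**Figure D1:**
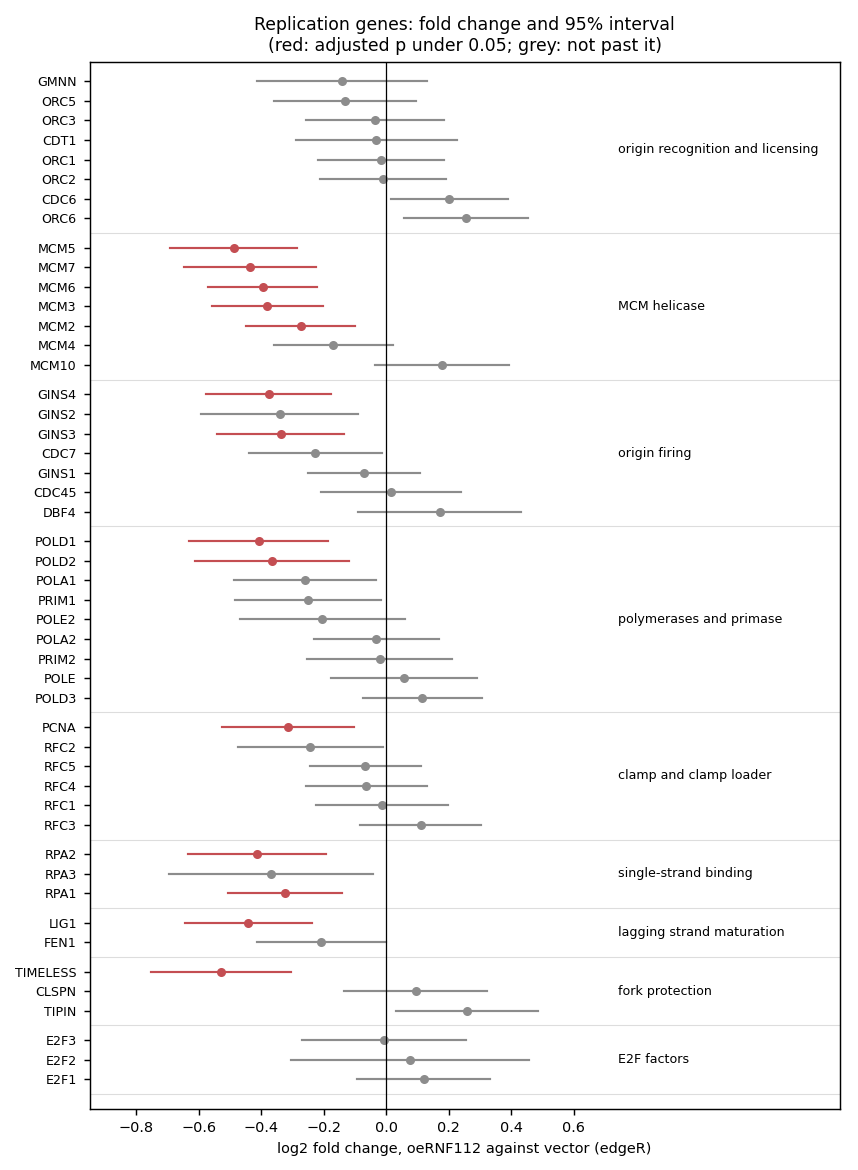
Log2 fold change of each of the 48 replication genes between oeRNF112 and vector (x axis), with its 95% interval from edgeR's fit, genes grouped by role (y axis). The 14 genes in red had an adjusted p under 0.05, all on the left of 0 and 5 of them in the MCM ring. The E2F factors have intervals that include 0, as do the licensing genes other than ORC6 and CDC6, whose intervals lie above 0.

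Of the 7 MCM genes, 5 were called lower (71.4%, against 8.14% of all genes tested) and none higher (against 9.97%). The median log2 fold change was -0.38, and 6 of the 7 fitted values were below 0. MCM5 had 166, 155 and 179 CPM in vector and 117, 127 and 112 CPM in oeRNF112, and the lowest vector sample lay above the highest oeRNF112 sample (log2 fold change -0.49, standard error 0.0911, edgeR adjusted p = 0.00639). MCM7, the most abundant subunit per length and a host gene of microRNAs, had 346, 315 and 375 CPM in vector and 249, 274 and 243 CPM in oeRNF112 (log2 fold change -0.44, standard error 0.0946, edgeR adjusted p = 0.0124). MCM6 had 128, 123 and 127 CPM in vector and 97.02, 97.8 and 93.2 CPM in oeRNF112 (log2 fold change -0.40, standard error 0.0779, edgeR adjusted p = 0.00815). The samples of each group were close together for MCM6, with SDs of 2.68 and 2.5 CPM around means of 126 and 96.01 CPM. MCM3 had 139, 140.1 and 151 CPM in vector and 112, 108 and 111 CPM in oeRNF112 (log2 fold change -0.38, standard error 0.0795, edgeR adjusted p = 0.0106), and MCM2 had 194, 187 and 196 CPM in vector and 158, 165 and 153 CPM in oeRNF112 (log2 fold change -0.27, standard error 0.0782, edgeR adjusted p = 0.0375). For both, no sample of one group reached into the other. The sixth subunit, MCM4, had 314, 324 and 282 CPM in vector and 273, 265 and 279.6 CPM in oeRNF112, so that the lowest vector and the highest oeRNF112 sample nearly met, and it did not pass the threshold (log2 fold change -0.17 with a 95% interval from -0.36 to 0.02, edgeR adjusted p = 0.197). MCM10, a separate protein that helps to activate the loaded helicase, had 25.8, 28.1 and 24.6 CPM in vector and 27.9, 30.2 and 30.6 CPM in oeRNF112 (log2 fold change 0.18 with a 95% interval from -0.04 to 0.39, edgeR adjusted p = 0.223).

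Within the ring the subunits were not equally abundant. In RPKM (reads scaled to gene length and library size, mean ± SD over 3 vector samples), MCM7 had 111 ± 7.83, MCM4 71.01 ± 6.04, MCM2 52.8 ± 0.293, MCM3 40.7 ± 1.57, MCM5 39.3 ± 2.32 and MCM6 32.6 ± 0.203. The vector means of MCM3 and MCM5 lay within their SDs of each other. Within each vector sample MCM3 was higher, at 39.2, 40.7 and 42.3 RPKM against 38.9, 37.2 and 41.8 RPKM. In oeRNF112 the order was MCM7 at 87.3 ± 4.19, MCM4 at 67.3 ± 2.996, MCM2 at 46.6 ± 0.96, MCM3 at 33.4 ± 1.1, MCM5 at 29.9 ± 1.38 and MCM6 at 26.4 ± 0.366 RPKM. The ratio of MCM5 to MCM4, which scaling between samples cannot change, was 0.54, 0.487 and 0.648 in vector and 0.438, 0.489 and 0.409 in oeRNF112, and the groups overlapped.

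None of the 8 origin recognition and licensing genes passed the threshold in either direction with edgeR or DESeq2, and at an unadjusted p under 0.05 edgeR counted 0 lower and 2 higher. ORC1, the ORC subunit whose level cycles, had 37.04, 36.3 and 38.4 CPM in vector and 34.2, 39.1 and 37.01 CPM in oeRNF112 (log2 fold change -0.02 with a 95% interval from -0.22 to 0.19, edgeR adjusted p = 0.918). ORC2 had 48.8, 49.96 and 46.98 CPM in vector and 51.6, 44.8 and 48.3 CPM in oeRNF112, and the groups overlapped (log2 fold change -0.01 with a 95% interval from -0.21 to 0.19, edgeR adjusted p = 0.949). ORC3 and ORC5, other subunits of the complex, had log2 fold changes of -0.04 and -0.13 (intervals from -0.26 to 0.18 and from -0.36 to 0.10), with means of 38.4 ± 3.51 CPM in vector and 37.4 ± 1.93 CPM in oeRNF112 (SD, n = 3 each) and 34.1 ± 3.44 CPM in vector and 31.1 ± 1.4 CPM in oeRNF112 (SD, n = 3 each). ORC6 had 52.6, 46.5 and 53.2 CPM in vector and 61.04, 60.9 and 59.5 CPM in oeRNF112, every oeRNF112 sample above every vector sample (log2 fold change 0.25 with a 95% interval from 0.06 to 0.45, edgeR adjusted p = 0.0741). CDC6, the ATPase that brings the ring to ORC, had 97.4, 88.4 and 100.4 CPM in vector and 110.3, 110.0 and 109 CPM in oeRNF112, again without overlap (log2 fold change 0.20 with a 95% interval from 0.01 to 0.39, edgeR adjusted p = 0.124). Scaled by library totals alone, ORC6 and CDC6 were higher in oeRNF112 at log2 fold changes of 0.35 and 0.30 (edgeR adjusted p = 0.0196 and 0.0301), so whether these genes differ depends on the scaling.

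CDT1, which delivers the ring, had 77.9, 69.1 and 88.1 CPM in vector and 74.5, 85.8 and 69.5 CPM in oeRNF112 (log2 fold change -0.03 with a 95% interval from -0.29 to 0.22, edgeR adjusted p = 0.874). Its inhibitor GMNN had 40.2, 30.3 and 37.03 CPM in vector and 33.7, 34.5 and 29.2 CPM in oeRNF112 (log2 fold change -0.14 with a 95% interval from -0.41 to 0.13, edgeR adjusted p = 0.447). For both genes the samples of the groups overlapped, and vector replicate 2 was the lowest vector sample. The ratio of CDT1 to GMNN in RPKM was 3.04, 3.58 and 3.73 in vector and 3.47, 3.9 and 3.73 in oeRNF112.

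**Figure D2:**
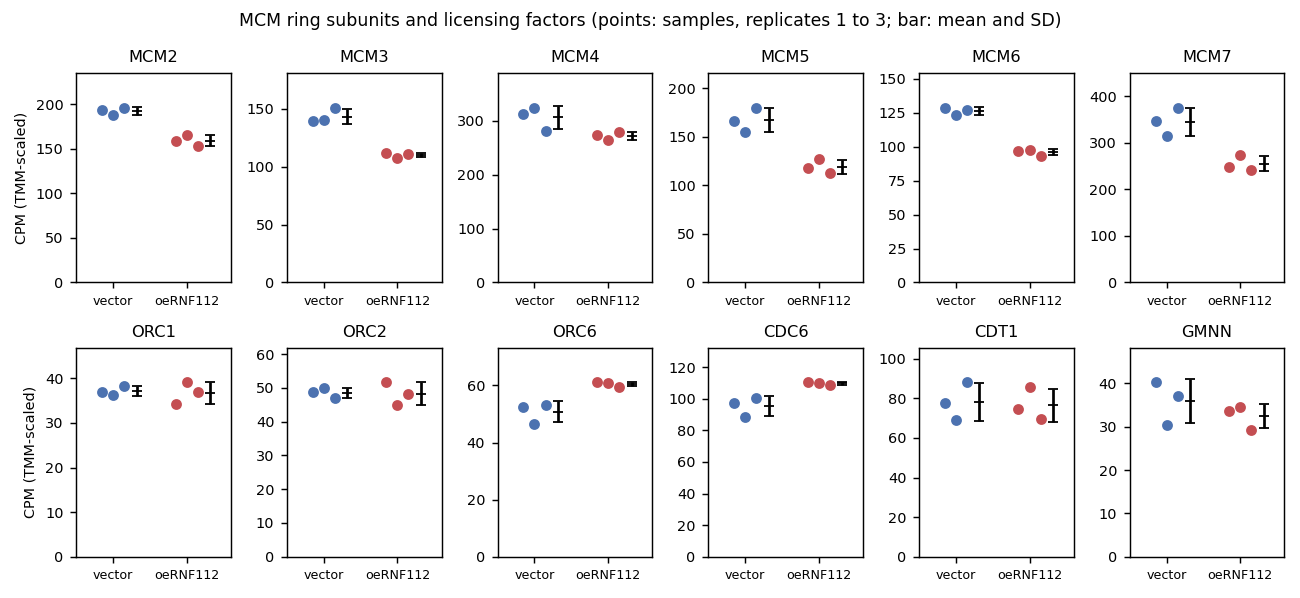
TMM-scaled CPM (y axis, from 0) of the 6 MCM ring subunits and of 6 licensing factors in each vector and oeRNF112 sample, with the mean and SD of 3 samples as a bar. The ring subunits sit lower in oeRNF112 in every panel of the upper row, whereas ORC1, ORC2, CDT1 and GMNN overlap and ORC6 and CDC6 sit higher.

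The gap between ring and loaders was also measured inside each sample, where scaling cancels. The geometric mean RPKM of MCM2 to MCM7 divided by that of ORC1, ORC2, ORC3, ORC5, ORC6 and CDC6 was 3.85, 4.1 and 3.97 in vector and 2.996, 3.04 and 2.997 in oeRNF112. All 3 oeRNF112 samples were below all 3 vector samples, at 75.7% of the vector ratio, with SDs of 0.045 and 0.0114 on the log2 scale. These pairs of genes and those given below were chosen after the values were seen, so the ratios are descriptions without a test, and 3 samples against 3 could not have given an exact permutation p below 0.10.

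Of the factors that fire origins, the GINS genes GINS3 and GINS4 were lower. GINS4 had 37.9, 41.2 and 36.6 CPM in vector and 30.4, 29.7 and 29.05 CPM in oeRNF112 (log2 fold change -0.38, standard error 0.0898, edgeR adjusted p = 0.0185), and GINS3 had 23.3, 23.1 and 23.4 CPM in vector and 18.4, 19.05 and 17.7 CPM in oeRNF112 (log2 fold change -0.34, standard error 0.0907, edgeR adjusted p = 0.0298). Neither gene had overlapping groups. GINS2, another subunit, had 54.2, 46.5 and 55.1 CPM in vector and 37.8, 46.7 and 38.4 CPM in oeRNF112, and oeRNF112 replicate 2 reached vector replicate 2 (log2 fold change -0.34 with a 95% interval from -0.59 to -0.09, edgeR adjusted p = 0.063), whereas GINS1 had means of 74.00 ± 2.44 CPM in vector and 70.4 ± 1.2 CPM in oeRNF112 (SD, n = 3 each), a log2 fold change of -0.07 with a 95% interval from -0.25 to 0.11 and edgeR adjusted p = 0.563. CDC45, the partner of GINS in the helicase, had 47.1, 42.4 and 50.7 CPM in vector and 44.1, 50.6 and 46.8 CPM in oeRNF112 (log2 fold change 0.01 with a 95% interval from -0.21 to 0.24, edgeR adjusted p = 0.94). The kinase CDC7 had 35.8, 38.1 and 32.7 CPM in vector and 31.4, 29.02 and 30.7 CPM in oeRNF112 without overlap but did not pass the threshold (log2 fold change -0.23 with a 95% interval from -0.44 to -0.02, edgeR adjusted p = 0.127), and its activator DBF4 had means of 35.1 ± 4.02 CPM in vector and 39.5 ± 4.21 CPM in oeRNF112 (SD, n = 3 each), a log2 fold change of 0.17 with a 95% interval from -0.09 to 0.43 and edgeR adjusted p = 0.338. The ratio of CDC7 to DBF4 in RPKM was 0.952, 1.28 and 0.95 in vector and 0.905, 0.779 and 0.718 in oeRNF112, lower in every oeRNF112 sample. DESeq2 also called GINS2 (log2 fold change -0.35, adjusted p = 0.0368).

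Among the polymerases, the catalytic subunit and a small subunit of polymerase delta were lower. POLD1 had 69.5, 69.8 and 82.7 CPM in vector and 57.9, 57.6 and 51.8 CPM in oeRNF112 (log2 fold change -0.41, standard error 0.10, edgeR adjusted p = 0.0206), and POLD2 had 164, 149.6 and 189 CPM in vector and 122, 145 and 123 CPM in oeRNF112 (log2 fold change -0.37, standard error 0.111, edgeR adjusted p = 0.0454). The groups did not overlap for either, although POLD2 varied more among samples. POLD3, an accessory subunit of the same enzyme, had means of 56.6 ± 2.8 CPM in vector and 61.2 ± 2.4 CPM in oeRNF112 (SD, n = 3 each), a log2 fold change of 0.12 with a 95% interval from -0.08 to 0.31 and edgeR adjusted p = 0.378. The ratio of POLD1 to POLD3 in RPKM was 1.54, 1.43 and 1.86 in vector and 1.2, 1.17 and 0.994 in oeRNF112, and the groups did not overlap. POLE, the catalytic subunit of polymerase epsilon, had means of 93.1 ± 8.32 CPM in vector and 96.8 ± 9.87 CPM in oeRNF112 (SD, n = 3 each), a log2 fold change of 0.06 with a 95% interval from -0.18 to 0.29 and edgeR adjusted p = 0.74, and its subunit POLE2 had 13.8 ± 1.46 CPM in vector and 12.01 ± 0.748 CPM in oeRNF112 (SD, n = 3 each), a log2 fold change of -0.20 with a 95% interval from -0.47 to 0.06 and edgeR adjusted p = 0.256. POLA1 and PRIM1, the catalytic subunits of polymerase alpha and of primase, had log2 fold changes of -0.26 and -0.25 (edgeR adjusted p = 0.105 and 0.126), and their partners POLA2 and PRIM2 of -0.03 and -0.02 (edgeR adjusted p = 0.836 and 0.908).

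PCNA, the sliding clamp and a protein commonly stained as a mark of proliferation, was the most abundant of the 48 genes per length, at 146 ± 8.53 RPKM in vector. It had 213, 194 and 225 CPM in vector and 171, 182 and 155 CPM in oeRNF112, with every oeRNF112 sample lower (log2 fold change -0.32, standard error 0.0948, edgeR adjusted p = 0.045). The genes of the loader did not pass the threshold. RFC2 was nearest to it (log2 fold change -0.24 with a 95% interval from -0.47 to -0.01, edgeR adjusted p = 0.133), and RFC1, RFC3, RFC4 and RFC5 had log2 fold changes between -0.07 and 0.11 with edgeR adjusted p-values between 0.406 and 0.939.

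RPA coats single-stranded DNA at the fork, and its large and middle subunits were lower. RPA1 had 249, 244 and 247 CPM in vector and 207, 200.4 and 184 CPM in oeRNF112 (log2 fold change -0.33, standard error 0.0819, edgeR adjusted p = 0.0233), and RPA2 had 51.02, 45.3 and 51.5 CPM in vector and 38.1, 39.2 and 33.6 CPM in oeRNF112 (log2 fold change -0.41, standard error 0.0994, edgeR adjusted p = 0.019). Both were below every vector sample in every oeRNF112 sample. RPA3, the small subunit, had 75.2, 60.3 and 80.6 CPM in vector and 50.96, 67.7 and 48.7 CPM in oeRNF112, and did not pass (log2 fold change -0.37 with a 95% interval from -0.70 to -0.04, edgeR adjusted p = 0.109).

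LIG1, the ligase that seals Okazaki fragments, had 55.2, 57.4 and 62.5 CPM in vector and 45.4, 40.6 and 42.8 CPM in oeRNF112 (log2 fold change -0.44, standard error 0.0917, edgeR adjusted p = 0.0105). The groups did not overlap. FEN1, the nuclease that trims the fragments before they are sealed, had 186, 168 and 202 CPM in vector and 167, 162 and 151 CPM in oeRNF112 and did not pass (log2 fold change -0.21 with a 95% interval from -0.42 to -0.00, edgeR adjusted p = 0.148).

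TIMELESS, which with TIPIN keeps the helicase and the polymerases together at the fork, had the largest fall of the 48 genes. It had 85.5, 99.3 and 88.2 CPM in vector and 65.3, 56.6 and 67.2 CPM in oeRNF112 (log2 fold change -0.53, standard error 0.10, edgeR adjusted p = 0.00687). Its partner TIPIN had 14.3, 13.2 and 13.4 CPM in vector and 15.5, 17.1 and 16.3 CPM in oeRNF112, every oeRNF112 sample being above every vector sample (log2 fold change 0.26 with a 95% interval from 0.03 to 0.48, edgeR adjusted p = 0.106), and with library totals TIPIN passed the threshold at a log2 fold change of 0.35 (edgeR adjusted p = 0.0351). The ratio of TIMELESS to TIPIN within a sample was 4.81, 6.08 and 5.3 in vector and 3.41, 2.66 and 3.32 in oeRNF112, or 57.9% of vector. CLSPN, an adaptor for checkpoint signalling, had means of 36.5 ± 3.28 CPM in vector and 38.9 ± 2.97 CPM in oeRNF112 (SD, n = 3 each), a log2 fold change of 0.09 with a 95% interval from -0.14 to 0.32 and edgeR adjusted p = 0.56.

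**Figure D3:**
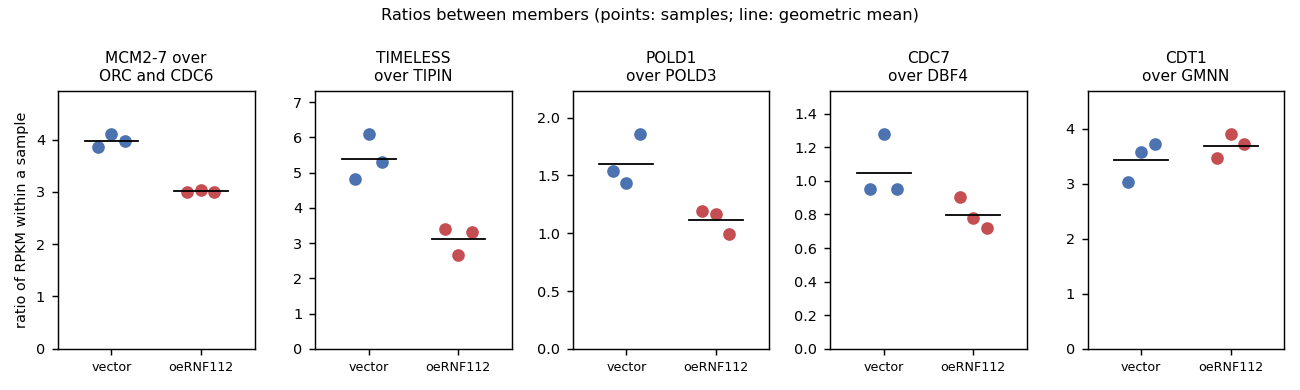
RPKM ratios (y axis, from 0) between members within each sample, a measure that does not depend on scaling between samples, with the geometric mean of each group as a line. The first 4 ratios are lower in all 3 oeRNF112 samples, at most 3.04 against at least 3.85 for the MCM ring over its loaders, and CDT1 over GMNN overlaps.

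The E2F factors, which drive transcription of most of the genes above, did not pass the threshold in any of the 3 cases with edgeR, DESeq2 or limma. None had an unadjusted p under 0.05 in edgeR's reported fit. At that unadjusted p, 1 of the 3 was higher and 0 lower with limma on log2(RPKM + 1), and likewise with library totals in edgeR. E2F1 had 59.1, 58.1 and 69.1 CPM in vector and 70.04, 67.7 and 64.5 CPM in oeRNF112 (log2 fold change 0.12 with a 95% interval from -0.09 to 0.33, edgeR adjusted p = 0.417). E2F2 was the least abundant of the 48 genes per length and had 4.8, 5.53 and 7.07 CPM in vector and 5.79, 6.93 and 5.6 CPM in oeRNF112 (log2 fold change 0.07 with a 95% interval from -0.31 to 0.46, edgeR adjusted p = 0.796). E2F3 had 27.6, 32.8 and 27.7 CPM in vector and 29.7, 25.5 and 32.5 CPM in oeRNF112 (log2 fold change -0.01 with a 95% interval from -0.27 to 0.26, edgeR adjusted p = 0.973). The samples of the groups overlapped for all 3 genes.

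**Figure D4:**
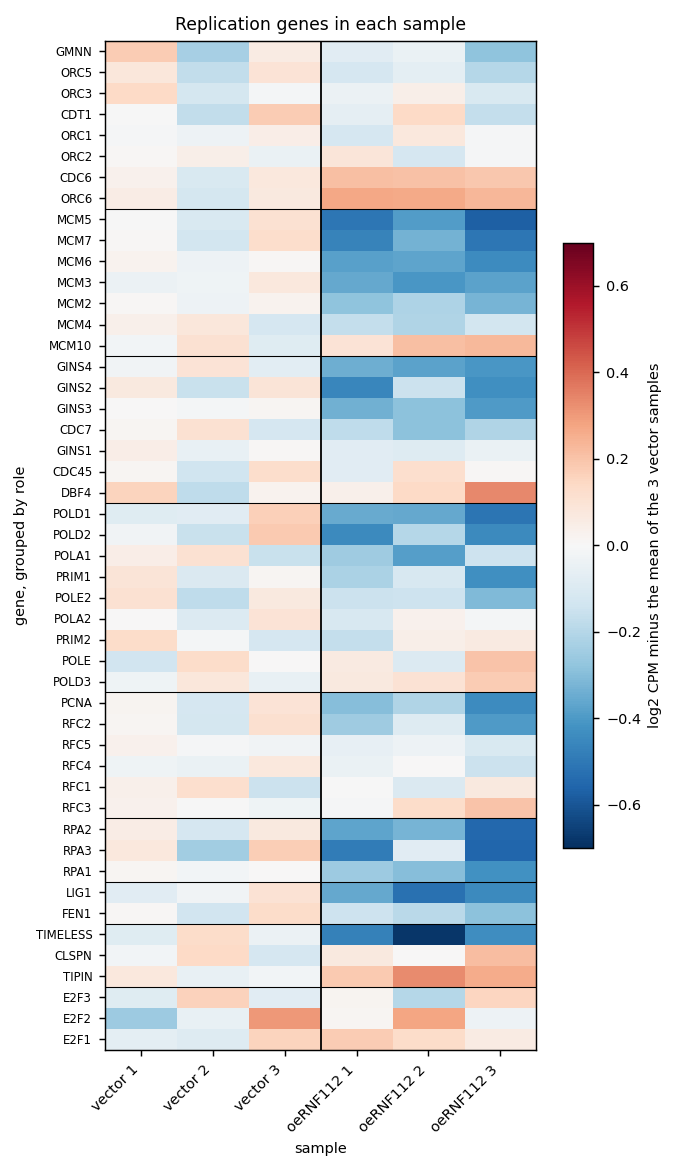
Log2 CPM of each replication gene (rows, grouped by role) in each sample (columns) minus the mean of the 3 vector samples, with blue below and red above that mean. The blue block spans MCM5 to MCM4 in all 3 oeRNF112 samples, and vector replicates 2 and 3 show opposite shades in many rows.

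The samples of one group also differed among themselves. Over the 48 genes the median SD of log2 CPM was 0.110 in vector and 0.0901 in oeRNF112, from a mean over both groups of 0.0329 to 0.237 per gene. Vector replicate 2 was the lowest vector sample for 29 of the 48 genes. Set against the mean of vector, the 48 genes had medians of 0.01, -0.05 and 0.03 (log2) for vector replicates 1 to 3 and of -0.13, -0.10 and -0.16 for oeRNF112 replicates 1 to 3, so all 3 oeRNF112 samples lay below all 3 vector samples. The deviation of a sample from its group mean went with gene length across the 48 genes, upward in vector replicate 2 and oeRNF112 replicate 3 (Spearman's rho 0.628 and 0.643) and downward in vector replicate 3 and oeRNF112 replicate 2 (-0.569 and -0.523). Across the same genes the fold change had a rho of 0.324 with gene length and of -0.475 with the vector RPKM. The 14 lower genes had a median of 35.9 RPKM in vector and the 34 others a median of 11.3 RPKM, with median lengths of 3464 and 4055 bases. These are descriptions over genes that share the same 6 libraries, and the part of length and abundance in the falls was not tested. Without vector replicate 2 and oeRNF112 replicate 3, 12 of the 48 genes were lower (edgeR, adjusted p under 0.05), and without vector replicate 3 and oeRNF112 replicate 2, 10 were, both chosen after seeing the data. In these fits, in the same order, 8.08% and 5.80% of all genes tested were lower.

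The calls differed in how much they rested on single samples. MCM5, LIG1 and TIMELESS kept an adjusted p under 0.05 in each of the 6 fits that left out 1 sample, MCM6 in 5 of them and MCM3 and MCM7 in 4, whereas MCM2 and GINS3 kept it in 1. POLD1 and RPA2 kept it in 3, and PCNA, POLD2, GINS4 and RPA1 in 2. In the 9 other settings, PCNA and MCM2 kept the call in 3. Without vector replicate 1 only LIG1, MCM5 and TIMELESS were called, without oeRNF112 replicate 1 these and MCM6 were, without oeRNF112 replicate 3 these 4 with MCM3 and MCM7 were, and without vector replicate 2 the number rose to 16. In these fits, in the same order, 2.43%, 2.93%, 3.63% and 10.5% of all genes tested were called lower. Scaling by library totals alone left 8 genes lower (LIG1, MCM3, MCM5, MCM6, MCM7, POLD1, RPA2 and TIMELESS) and made 3 higher (CDC6, ORC6 and TIPIN), with the median of all genes at 0.10 and that of the 48 genes at -0.04. Under this scaling 4.56% of all genes tested were lower and 14.0% higher.

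**Figure D5:**
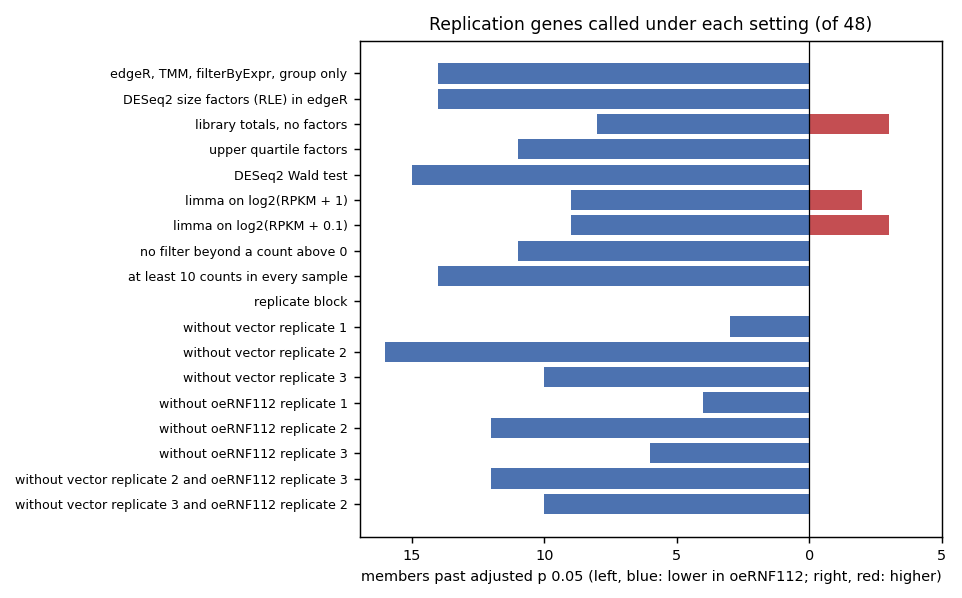
Number of the 48 replication genes with an adjusted p under 0.05 (x axis) under each way of processing (y axis), with genes lower in oeRNF112 to the left and higher to the right. The counts of lower genes run from 0 with the replicate number as a term (replicate block) to 16 without vector replicate 2, and genes are called higher with library totals and with limma on RPKM. Of all genes tested, 1.78% were lower with the block and 10.5% without vector replicate 2.

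Other replication factors, from a list of 39 genes of which 37 were tested, had a median of -0.02 on the log2 scale. Of these, 3 were lower with edgeR's test and none higher (8 lower and 2 higher at an unadjusted p under 0.05), a share of 8.11% lower, close to the 8.14% of all genes tested. DESeq2 called 5 of 38 lower and none higher, against 6.39% and 7.15% of all genes it tested. The 3 were POLE3, a small subunit of polymerase epsilon, SSRP1, a subunit of the histone chaperone FACT, and CIZ1, a nuclear factor with a role in starting replication. POLE3 had 182, 161 and 179 CPM in vector and 135, 130.5 and 128 CPM in oeRNF112 (log2 fold change -0.41, standard error 0.0843, edgeR adjusted p = 0.0105). SSRP1 and CIZ1 had log2 fold changes of -0.38 and -0.29 (edgeR adjusted p = 0.0107 and 0.0327). POLE4, the partner of POLE3, had a log2 fold change of -0.53 and did not pass (edgeR adjusted p = 0.0679).

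Other members of the E2F, DP and RB families were not called by edgeR (0 of 10, with 1 lower and 1 higher at an unadjusted p under 0.05), and DESeq2 called 1, E2F7, a repressor of E2F target genes, as higher (log2 fold change 0.48, adjusted p = 0.0335). In edgeR's fit E2F7 had 116, 157 and 96.5 CPM in vector and 175, 141 and 203 CPM in oeRNF112, with vector replicate 2 above oeRNF112 replicate 2 (log2 fold change 0.49 with a 95% interval from 0.09 to 0.89, edgeR adjusted p = 0.0851).

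Genes of the G1/S transition that are not replication factors had 5 of 18 lower (27.8%, against 8.14% of all genes tested) and 2 higher (11.1%, against 9.97% of all genes tested), with a median log2 fold change of 0.02. Among those with the smallest p-values were UNG, which removes uracil from DNA, TYMS, the thymidylate synthase, and DTL, which directs CDT1 to degradation. UNG had 78.5, 70.4 and 71.5 CPM in vector and 43.9, 42.8 and 40.3 CPM in oeRNF112 (log2 fold change -0.79, standard error 0.0887, edgeR adjusted p = 0.000548), with every oeRNF112 sample below every vector sample. TYMS fell as well (log2 fold change -0.53, standard error 0.102, edgeR adjusted p = 0.00737). DTL was higher, with 87.4, 86.1 and 83.7 CPM in vector and 108, 112 and 119 CPM in oeRNF112 (log2 fold change 0.39, standard error 0.0813, edgeR adjusted p = 0.0103). Of the G2/M genes, edgeR called 5 of 20 lower (25%, against 8.14% of all genes tested) and none higher (against 9.97%). Their median log2 fold change was -0.17. At an unadjusted p under 0.05 edgeR counted 8 lower and 0 higher. DESeq2 called 5 lower and none higher at an adjusted p under 0.05. The mitotic kinesin KIF20A had 141, 155 and 132 CPM in vector and 87.5, 82.4 and 81.4 CPM in oeRNF112 (log2 fold change -0.77, standard error 0.089, edgeR adjusted p = 0.000648). PLK1, CCNB2 and CCNB1, a kinase and the B-type cyclins of mitosis, had log2 fold changes of -0.46, -0.51 and -0.42 (edgeR adjusted p = 0.00528, 0.00563 and 0.012).

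Reads of some genes cannot be assigned with certainty. GENCODE names pseudogenes of PCNA and RPA2 (3 each), of E2F3 (2) and of DBF4, POLD2, RFC3, RFC5 and FEN1 (1 each), none of which has a row in the count table, so reads shared with them could have been lost or added. MCM7 exons and those of AP4M1 on the opposite strand share 392 bases (8.94% of the MCM7 exons), and AP4M1, itself lower in oeRNF112 (log2 fold change -0.40, edgeR adjusted p = 0.0298), had at most 1229 counts against at least 10273 for MCM7. Smaller overlaps, at most 6.70% of the exons, were found for 9 other genes. In 4 of these the overlapping gene reached more counts than the lowest sample of the replication gene, by most for PRIM1, which shares 33 bases on the same strand with NACA (up to 36154 counts against at least 1882), and RFC4, which shares 21 bases on the opposite strand with EIF4A2 (up to 20011 against at least 2239), and by less for DBF4 and GINS2. Whether the counting used strand is not given in the sources used here.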

How the data were processed

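Stranded mRNA libraries were made from T24 cells, 3 labelled vector and 3 oeRNF112. The deposited counts are reads per gene without normalization, and per the labels the submitters' processing notes name Trimmomatic 0.36, featureCounts, Subread 1.5.1 and GRCh38. The aligner, the annotation and the strand setting are not given in the sources used here. The deposited RPKM values matched counts scaled by library total and 1 length per gene in 20637 of 20637 genes compared (within 0.1%), so both tables hold the same measurement.

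Counts were tested with edgeR 4.0.16 in R 4.3.3 (filterByExpr, TMM factors, quasi-likelihood test, Benjamini-Hochberg adjustment over all genes tested). The standard error is the log2 fold change divided by the square root of F, and 95% intervals use the t distribution with the fit's degrees of freedom. CPM values are TMM-scaled, except the sums over marker genes and the bound for a count of 0, which use library totals. Deposited RPKM served for levels between genes, ratios and limma 3.58.1 (pseudocounts 1 and 0.1). Alternatives were DESeq2 1.42.0, other scalings and filters, a replicate block and samples left out. Scripts were tested on simulated data. No pair of samples held the same library.

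The member genes and lists were chosen with earlier results of these data known. By rule, genes named are RNF112, the 48 members and at most 4 genes with the smallest p-values from each of 4 lists; CIZ1 is among these, and 1 gene the rule names is not reported here. AP4M1, NACA and EIF4A2 were named after their overlaps were found. Marker genes were named to check the cell type. Promoters come from RefSeq.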

Additional observations from a re-analysis of the deposited data

How the results depend on the processing

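The median log2 fold change of the 48 replication genes was below 0 under every alternative tried, and no gene called in either fit changed direction. The values of single genes were compared under the 15 alternatives other than the omission of 2 samples. Of these values, 574 kept direction and stayed called or uncalled, 73 lost the call, 13 gained it and 60 changed sign without a call. Only the 14 genes called in the reported fit could lose a call, so the 574 include genes that stayed uncalled. Each of the 14 kept its call in 3 to 8 of 9 other settings and in 1 to 6 of 6 fits without 1 sample. With library totals, limma on log2(RPKM + 1) and limma on log2(RPKM + 0.1), 8, 9 and 9 of the genes were lower, 3, 2 and 3 higher, and the median was -0.0428, -0.0349 and -0.0384. Of all genes, 4.56%, 4.62% and 4.71% were lower and 14.0%, 12.9% and 13.3% higher under these settings. These settings also moved the median of all genes, to 0.0962, 0.0582 and 0.0925, so relative to it the 48 genes were at -0.139, -0.0931 and -0.131, against -0.140 in the reported fit. Library totals called 2020 genes higher and 659 lower, against 1442 and 1178. Leaving out 1 sample at a time, all genes called ranged from 1061 to 3387, replication genes lower from 3 to 16 with 0 higher, and their median from -0.153 to -0.0726. In these fits 2.43% to 10.5% of all genes tested were lower and 4.75% to 12.5% higher. The replicate block gave 876 genes and 0 of the 48 lower or higher (edgeR; 13 lower and 0 higher at an unadjusted p under 0.05). With the block, 1.78% of all genes tested were lower and 4.27% higher at an adjusted p under 0.05. The labels do not say what samples with the same number share, and the correlations of their deviations were -0.116, -0.363 and -0.296. Why the calls were lost with the block was not tested. Without both samples in which long genes were relatively high, or both in which they were low (chosen after seeing the data), 12 and 10 genes were lower (against 8.08% and 5.80% of all genes tested), with medians of -0.164 and -0.129. The cause was not tested. The members' standard errors lay between 0.0779 and 0.171. Together with the adjustment over all genes tested, they limited the smallest difference that could pass.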
